A study of Mus musculus with 8 samples.

Results

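The comparison described here sets the 2 arrays named Vbeta5 against the 2 arrays named control, chosen by their titles as 4 of the 8 arrays of a mouse study in which T cell receptors were engaged with antibodies. Every array carried total RNA from double positive thymocytes. The other 4 arrays, 2 named overnight control and 2 named Valpha2, entered the same fit and are given beside the results. Vbeta5 and Valpha2 are variable segments of the beta and the alpha chain of the receptor; the antibody clones, doses and times, the mouse strain and age, and any treatment shared by the groups do not stand in the labels used here. No time is named for the control, Valpha2 or Vbeta5 arrays, so a change between Vbeta5 and control may hold both the antibody and any culture or handling between the groups, which cannot be told apart in this pair alone. Nothing says that the 2 arrays of a group came from different cultures or mice, and the p-values reflect the spread between these samples alone, and that spread may be technical.

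Double positive thymocytes express the coreceptors CD4 and CD8 together, keep the recombinase Rag1 and Rag2 active to go on rearranging the receptor alpha chain, and mostly descend from a burst of dividing precursors. When their receptor binds a ligand, calcium with calcineurin and NFAT on one side and Ras with Erk on the other switch on early transcription factors of the Egr, Nr4a and AP-1 families. Depending on the signal the cell stops recombination and matures, or dies.

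Expression was read as 1 linear intensity per probe set, a group of oligonucleotides for 1 transcript. Array medians ran from 73.8 to 80.3 on the control arrays and from 90.5 to 90.95 on the Vbeta5 arrays. For the Gapdh control probe sets the 3' signal over the 5' signal on a log2 scale, a sign of RNA quality, was 0.48 and -0.20 on Vbeta5 arrays 1 and 2 and -0.09 and -0.28 on control arrays 1 and 2, while overnight control array 1 (0.95) and Valpha2 array 1 (1.72) stood higher. Of the 11 defining T lineage markers on the array, 0 were under a signal of 17 on both arrays of control or of Vbeta5. Their summed signal was 53005 to 53184 on the control arrays and 24793 to 37789 on the Vbeta5 arrays. That sum includes Cd4, Cd8a and Rag1, whose own values are given below. Summed over 22 receptor complex and proximal signalling genes, signal was 34917 and 29422 in control and 33850 and 31930 in Vbeta5. What lowered the marker sum was not tested. In bulk RNA, fewer cells of a type and less RNA per cell cannot be told apart.

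On the Vbeta5 arrays, 6 of 16 early response transcription factors, the inhibitory receptor PD-1 and several maturation and interferon-induced genes rose against control. There, 8 of 27 double positive stage genes, 13 of 35 replication genes and 17 of 37 mitosis genes fell. Replication and mitosis medians against control were also negative in overnight control (-1.36 and -1.30) and Valpha2 (-1.36 and -1.65). For Vbeta5 against either of those groups 0 genes of these 2 lists passed (0.616% and 0.278% of all tested probe sets did). Of 8281 probe sets tested for Vbeta5 against control, 52 were higher and 84 lower at a limma adjusted p under 0.05. That is 1.64% in all, 0.628% higher and 1.01% lower. These stood for 42 and 69 named genes. The change of the called probe sets had a median size of 1.82 on the log2 scale for the rises and 1.92 for the falls, and ran from 0.99 to 4.35 and from 1.08 to 3.99. On all of them the Vbeta5 and control arrays did not overlap, which was true of 48.4% of the tested probe sets. At an unadjusted p under 0.05 there were 920 of 8281, beside 698 for Vbeta5 against overnight control and 676 against Valpha2. A positive log2 fold change for Vbeta5 against control was seen in 57.0% of the 8281. List counts given below are to be read beside these background values. The 2 control arrays were the closest pair of the series, so a fit without either takes its spread from the wider pairs. The number of calls rested on both control arrays: 2 probe sets passed without control array 1 and 0 without control array 2 (671 at an unadjusted p under 0.05), against 56 without Vbeta5 array 1 and 29 when Vbeta5 array 2 was left out. With arrays scaled to a common median, which moved the median of all log2 fold changes from 0.08 to -0.13, the split was 17 higher and 80 lower, 17.5% higher in place of 38.2%. Without the variance trend 22 passed, among them 2 of the early response genes, 1 double positive stage gene, 4 replication genes and 0 mitosis genes. Leaving out the 3 arrays of higher 3' to 5' ratio (overnight control 1, Valpha2 1 and Vbeta5 1) gave 139 higher and 190 lower, but that fit holds 1 Vbeta5 array and takes its residual spread from the 2 control arrays alone, the closest pair of the series, so its counts say nothing of stability.

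Equally numbered arrays deviated together in all 6 pairs of groups, although nothing in the labels says what the numbers mark, and 3 of the 4 arrays numbered 1 are those of higher 3' to 5' ratio. With the number as a block in the limma fit, 95 probe sets were higher and 147 lower, all 56 named genes that passed still passed, and 24 of 88 named genes without a call passed. Of these 88, 13 passed with only the 4 arrays compared, and 11 with the 6 arrays without the overnight controls. Blocked counts are given beside a list where they differ by over 1.5 times.

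**Figure D1:**
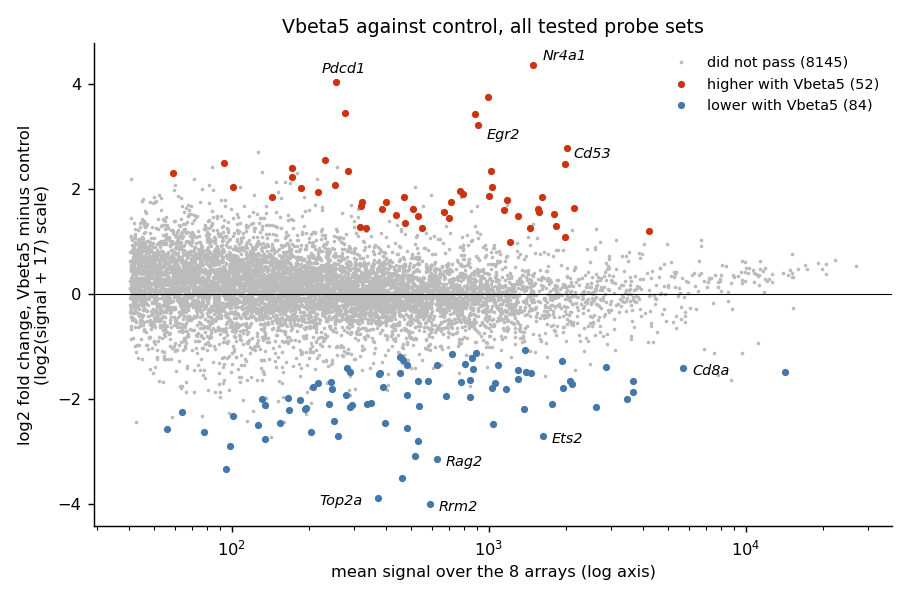
Log2 fold change of Vbeta5 against control for each of 8281 tested probe sets (y axis, log2(signal + 17) scale) against its mean signal over the 8 arrays (x axis, log). The 52 higher (red) and 84 lower (blue) probe sets lie at all levels of signal, and the grey points at the dim end are centred a little above 0.

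Early response transcription factors were among the genes that rose. Of 16 measured genes on the immediate early and Egr/Nr4a list, 6 rose and 0 fell, 15 had a positive log2 fold change, and the list median was 1.31 against 0.08 over all tested probe sets. Nr4a1, an orphan nuclear receptor that reports receptor signalling in T cells, read 159 and 218 on the control arrays and 3276 and 5184 on the Vbeta5 arrays. Its overnight control values were 534 and 778 and its Valpha2 values 342 and 1445. Both Vbeta5 arrays lay above all 6 others, a 20.4-fold rise over control (log2 fold change 4.35 ± 0.53 SE, limma adjusted p = 0.00751). Egr2, a zinc finger factor of the Egr family, read 226 and 314 in control, 344 and 210.3 in overnight control, 279.8 and 536 in Valpha2, and 2200.4 and 3141 in Vbeta5. Only the Vbeta5 arrays stood apart, 9.32-fold above control (3.22 ± 0.36, limma adjusted p = 0.00535). The Vbeta5 arrays also exceeded the Valpha2 arrays for Egr2 by the test of that difference (2.71 ± 0.36, limma adjusted p = 0.0265). Nr4a1 did not pass that test (2.51 ± 0.53, limma adjusted p = 0.099). With a common median, without the variance trend or with only the 4 arrays compared, 0 probe sets passed it.

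Egr1, of the same family as Egr2, had 886 and 1043 in control and 2720.2 and 2717 in Vbeta5. Its overnight control (765 and 648) and Valpha2 values (720.4 and 934) sat at or under the control level, and the rise over control was 2.80-fold (1.48 ± 0.23, limma adjusted p = 0.0126). Nab2, a corepressor that binds Egr proteins, rose 3.86-fold from 414 and 509 to 1719 and 1929. Ier2, an immediate early gene, rose 3.75-fold from 403 and 456 to 1459 and 1878, and Fos, a subunit of AP-1, rose 5.24-fold from 48.7 and 64.1 to 235 and 564. In these 3 genes every Vbeta5 array was above every other array of the series. Members that did not pass were Fosb (1.66, limma adjusted p = 0.0585), Junb (1.16, 0.186) and the Nr4a1 relative Nr4a2 (1.38, 0.252). The count of 6 became 4 without Vbeta5 array 1, 2 without Vbeta5 array 2, 0 without control array 1 or 2 (11 of the 16 had an unadjusted p under 0.05 with all arrays) and 3 with a common median. Fosb passed with the block (limma adjusted p = 0.0199).

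Promoters of the 2 genes with the largest rises on this list are shown because they hold cyclic AMP response type motifs. The bases are RefSeq's on GRCm38.p6, 250 bases upstream of the start in the direction of the gene, Nr4a1 at chr15:101266596-101266845 on the plus strand and Egr2 at chr10:67537619-67537868 on the plus strand, the latter 1 of 5 start windows listed for the gene. Capitals mark TGCGTCA in Nr4a1 and TGACGTC in Egr2, on either strand.
Nr4a1: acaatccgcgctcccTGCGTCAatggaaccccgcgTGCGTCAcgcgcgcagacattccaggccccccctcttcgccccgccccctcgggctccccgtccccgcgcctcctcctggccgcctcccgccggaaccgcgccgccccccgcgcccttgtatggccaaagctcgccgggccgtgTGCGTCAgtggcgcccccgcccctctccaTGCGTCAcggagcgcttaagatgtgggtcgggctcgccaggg
Egr2: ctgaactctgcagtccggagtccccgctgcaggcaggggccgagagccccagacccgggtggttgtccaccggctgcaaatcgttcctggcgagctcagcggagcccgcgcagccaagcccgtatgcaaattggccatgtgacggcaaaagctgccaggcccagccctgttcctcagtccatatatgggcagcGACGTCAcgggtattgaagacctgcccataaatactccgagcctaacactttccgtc
The Nr4a1 window held 4 copies of TGCGTCA, a motif picked after the sequence was read, and the Egr2 window 1 copy of TGACGTC. Of 32851 promoter windows of 27025 genes, 1.75% held TGCGTCA and 2.78% TGACGTC, searched on both strands. Of the 8 windows found for 4 of the 6 genes that rose on this list, 5 belong to Egr2. TGCGTCA was in 1 of the 8, the Nr4a1 window it was picked from. TGACGTC was in 3, the Egr2 window shown among them. These shares therefore cannot be set against those of all windows. These matches describe letters and not sites.

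Receptors that restrain or assist T cell activation had a list median of 1.06, with 11 of 12 log2 fold changes positive, but 1 gene passed. Pdcd1, the gene of PD-1, a receptor that dampens activated T cells, read 62.7 and 13.9 on the control arrays, 13.3 and 27.8 on the overnight control arrays and 53.3 and 179 on the Valpha2 arrays. On the Vbeta5 arrays it read 553 and 1133, above all others and 16.3-fold over control (4.03 ± 0.62, limma adjusted p = 0.0129). Several of the low values lie near or under the added 17, so the fold understates the ratio of signals. Icos, an inducible costimulator, read 33.8 and 119.7 in control and 380.5 and 495 in Vbeta5 without passing (2.44 ± 0.61, limma adjusted p = 0.092). Cd28, the constitutive costimulator, read 1368 and 2510.4 against 3670.0 and 5222 (1.23, limma adjusted p = 0.0835). Cd5, an inhibitory receptor whose level follows receptor signal strength, read 2652 and 2803 against 4762 and 5332, groups that do not overlap but did not pass (0.88 ± 0.41, limma adjusted p = 0.467). Against the overnight control, where Cd5 read 685 and 1327, the difference passed (2.38 ± 0.41, limma adjusted p = 0.03). Ctla4 differed from the rest of the list: 48.2 and 23.5 in control, 133 and 137 in Vbeta5, and higher still in overnight control (239 and 196) and Valpha2 (215 and 205). It rose in both of the latter against control (2.18, limma adjusted p = 0.0497, and 2.14, limma adjusted p = 0.0395) and did not pass for Vbeta5 (1.56, limma adjusted p = 0.068). With the replicate block 4 of the 12 passed, Icos, Cd28 and Ctla4 (limma adjusted p = 0.00551, 0.00867 and 0.0332) beside Pdcd1, and 0 passed without Vbeta5 array 2, either control array or the variance trend (8 at an unadjusted p under 0.05 with all arrays).

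Among signalling genes, Nfatc1, the calcium-regulated factor whose own transcription is raised by NFAT, moved most. It read 287 and 177 in control, 317 and 249 in overnight control, 179 and 683 in Valpha2, and 2634 and 2543 in Vbeta5. The Vbeta5 pair was close together and above all other arrays, 10.7-fold over control (3.42 ± 0.49, limma adjusted p = 0.0113). It was the 1 gene of 8 on the NFAT and calcineurin list that passed, and the list median was -0.08. Its relative Nfatc3 read 1815 and 3126 in control and 825 and 763 in Vbeta5 (-1.57 ± 0.62, limma adjusted p = 0.362). Dusp2, a nuclear phosphatase of MAP kinases, rose 3.0-fold, from 708 and 768 to 2302 and 2196. It was the 1 of 14 feedback genes that passed, and Dusp6, a phosphatase of Erk, read 469.7 and 377 in control against 129.9 and 162 in Vbeta5 (-1.43, limma adjusted p = 0.0703, and 0.0349 with the block). Of 22 genes of the receptor complex and its proximal kinases and adaptors 0 passed (1 higher and 0 lower at an unadjusted p under 0.05), with a median of 0.01. The 12 measured NF-kB subunits and targets also gave 0 (3 and 0 unadjusted; 1, Relb, with the block), with a median of 0.34. Gadd45b, a stress-induced gene of the p38 pathway, rose by 1.84 and 2.03 on the log2 scale on its 2 probe sets. On the brighter one it read 55.5 and 33.6 in control and 189 and 212 in Vbeta5, but also 189.9 and 154 in overnight control and 155 and 157 in Valpha2.

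Markers of thymocyte maturation were mixed. Of 27 measured genes on the positive selection and maturation list, 4 rose and 0 fell. The list median was 0.28, but -0.10 with the dimmest 50% of probe sets left out and 0.61 when a gene's probe sets were averaged. Cd53, a tetraspanin of leukocytes, read 763 and 898 in control, 833 and 922 in overnight control, 1239 and 1646 in Valpha2, and 3959 and 5539.9 in Vbeta5, a rise of 5.56-fold (2.48 ± 0.25, limma adjusted p = 0.00535). Itm2a, a membrane protein known to appear during positive selection, read 479 and 610.0 in control, 214 and 325 in overnight control, 237 and 672 in Valpha2, and 2349 and 3301 in Vbeta5. It rose 5.02-fold (2.33 ± 0.42, limma adjusted p = 0.0213). For both genes the Vbeta5 arrays were the highest of the series, and both also passed against Valpha2 (Cd53 1.70, limma adjusted p = 0.0333, Itm2a 2.74, limma adjusted p = 0.0395). Id3, an inhibitor of E protein transcription factors that Egr factors are known to induce in thymocytes, rose 2.46-fold, from 1135 and 1126 to 2728 and 2882. Its overnight control (1839 and 1429) and Valpha2 values (1469.7 and 1973) lay between those groups, and it was the 1 call among 7 E protein and Id genes. The fourth was H2-K1, taken up with the class I genes. Gata3 (0.29, limma adjusted p = 0.771), Bcl2 (0.28, 0.782) and Il7r (1.05, 0.433) did not pass, although 1 dimmer Bcl2 probe set read 80.4 and 47 against 153 and 206 (1.3, 0.403). Without control array 1 or 2, 0 members passed (6 higher and 2 lower at an unadjusted p under 0.05 with all arrays), and 2 passed when Vbeta5 array 1 was left out, 1 when Vbeta5 array 2 was, and 2 on a common median.

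Other large rises fell on genes of the cell surface, the cytoskeleton and metabolism. Basp1, a lipid-anchored protein of the membrane cytoskeleton, read 644 and 907 in control, 645 and 1044 in overnight control, 682 and 1553 in Valpha2, and 5841 and 4898 in Vbeta5. It rose 6.87-fold (2.78 ± 0.37, limma adjusted p = 0.00961), with 1.34 and no call on a second probe set (limma adjusted p = 0.0822). Lcp1, the actin-bundling L-plastin, rose 3.11-fold from 1656 and 1234 to 4543 and 4435, and Cnn2, a calponin, rose 2.80-fold from 412 and 342 to 1102 and 1065. A dim second Lcp1 probe set had the other sign and did not pass (-0.42, limma adjusted p = 0.891). Anxa2, a calcium-dependent membrane linker of actin, fell 3.67-fold, from 5508 and 5144 to 2088 and 989. These 3 rises and 1 fall were the calls among 53 actin and adhesion genes, whose median was 0.07, and with the block the counts were 6 and 2. Without either control array or the variance trend 0 of these passed (11 higher and 7 lower at an unadjusted p under 0.05 with all arrays), and the count of rises was 1 on a common median or without either Vbeta5 array. Ephx1, a microsomal epoxide hydrolase, read 143 and 26 in control, 35.6 and 44.4 in overnight control, 62.8 and 143 in Valpha2, and 899.5 and 866 in Vbeta5. Its 2 control arrays were far apart, and the rise was 10.9-fold (3.44 ± 0.57, limma adjusted p = 0.0162). Gnpnat1, an enzyme of amino sugar synthesis, rose 4.21-fold to 403 and 702, and Igkv4-68, an immunoglobulin light chain segment, rose 5.62-fold from 13.5 and 18.1 to 159 and 175. Igkv4-68 was also above control on the overnight control (150.2 and 71.4) and Valpha2 arrays (77.3 and 80.9). Ndrg1 and Pfkp, the first induced by hypoxia and the second a phosphofructokinase, were the 2 that rose among 22 glycolysis and hypoxia genes (1.49 and 1.25 on the log2 scale, list median 0.50). Of the 22, 0 passed with a common median, without the variance trend or with any 1 of the 4 Vbeta5 and control arrays left out (5 higher and 1 lower at an unadjusted p under 0.05 with all arrays).

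**Figure D2:**
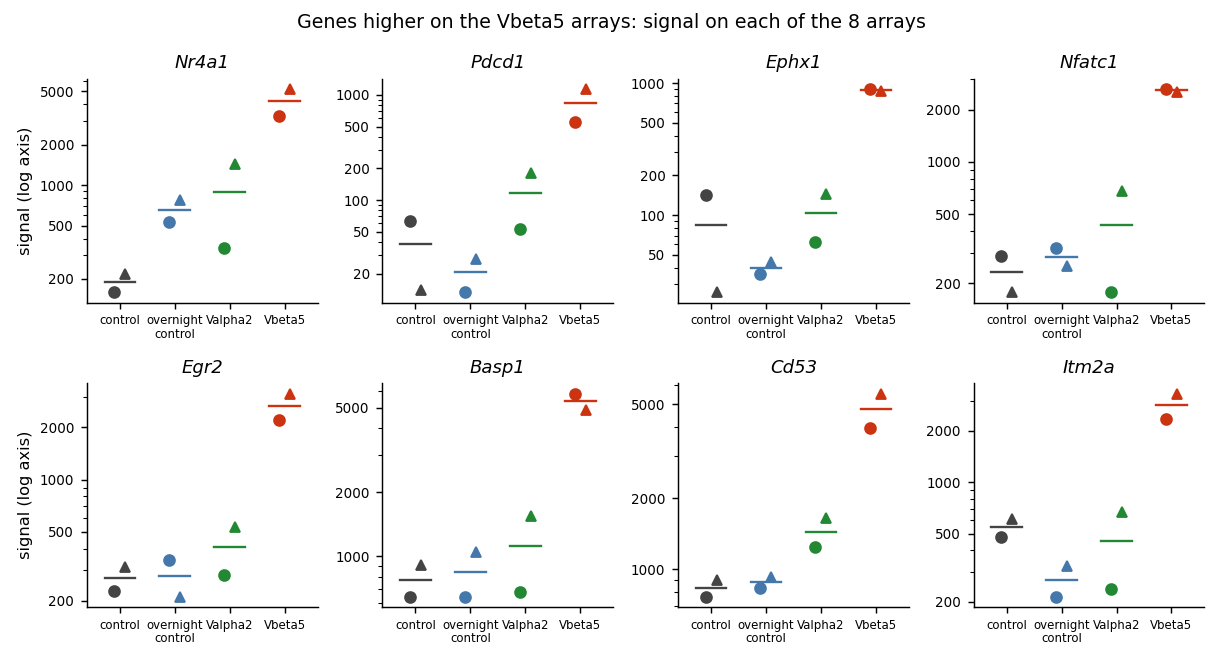
Signal on each of the 8 arrays (y axis, log) for 8 genes that were higher on the Vbeta5 arrays; circles are arrays 1, triangles arrays 2 and bars group means. The genes were picked from those called higher. In all 8 panels both Vbeta5 arrays lie above the other 6, a pattern that not every called gene shares.

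Interferon-induced genes and the class I presentation machinery had positive list medians and few calls. Of 28 interferon-induced genes, 24 had a positive log2 fold change, beside 57.0% of all tested probe sets. Of the 28, 3 rose and 0 fell, and the median was 0.80. Gbp2, an interferon-induced GTPase, read 249.9 and 240.5 in control and 815 and 1053 in Vbeta5, above overnight control (324 and 244) and Valpha2 (425 and 389.7), a 3.6-fold rise (1.85 ± 0.26, limma adjusted p = 0.0113). Gbp3, of the same family, rose 5.86-fold, from 55.3 and 93.5 to 310.1 and 823. Irf9, the DNA-binding part of the factor that answers type I interferon, rose 2.96-fold from 315 and 339 to 818 and 1220.5, and its Valpha2 values (927 and 786) overlapped the Vbeta5 values. Irf1 (1.67, limma adjusted p = 0.0608), Irgm1 (2.11, 0.118) and Ifi47 (1.84, 0.135) did not pass. Vbeta5 array 2 read higher than array 1 for all of Gbp3, Irgm1 (155 and 658) and Ifi47 (705 and 2679.8). The list count was 6 without Vbeta5 array 1, 0 without Vbeta5 array 2 or either control array (15 at an unadjusted p under 0.05 with all arrays) and 1 with a common median. With the replicate block it was 7, with Irf1, Irgm1 and Ifi47 among them (limma adjusted p = 0.023, 0.0371 and 0.0431), and without the variance trend 0.

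On the class I list 12 of 14 log2 fold changes were positive, 2 genes rose, and the median was 0.72. H2-K1, a class I heavy chain, rose 3.6-fold on its brightest probe set, from 838 and 898 to 2723 and 3685, with 1.62 (limma adjusted p = 0.0745) and 0.78 (0.517) on 2 others. Tapbp encodes tapasin, which loads peptide onto class I, and rose 2.38-fold from 821 and 970.4 to 1879 and 2448, while its 2 dimmer probe sets gave 0.04 and 0.29 without a call. For H2-D1 a probe set passed (1.62 ± 0.26, limma adjusted p = 0.0153), and the brightest gave 0.11 (0.91). Class I genes are near-identical in sequence and these probe sets can read several of them, so which heavy chain moved is uncertain. The light chain B2m read 2581 and 2864 against 4132 and 6659 (0.94 ± 0.26, limma adjusted p = 0.128). The count of 2 became 1 without Vbeta5 array 1 and with a common median, and 0 without Vbeta5 array 2 or either control array (9 higher and 1 lower unadjusted with all arrays).

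Of 27 measured genes on the double positive stage list, 8 fell and 0 rose with Vbeta5. As drawn up, the list also names genes not confined to that stage, such as Tcf7, Lef1, Notch1 and Hes1. The list median was -0.62, and 12 of the 27 had a positive log2 fold change. Rag2, a subunit of the recombinase, read 516 and 827 in control, 737 and 1185 in overnight control, 931 and 692 in Valpha2, and 133 and 21.2 in Vbeta5. Both Vbeta5 arrays were under all others, 8.86-fold below control (-3.15 ± 0.54, limma adjusted p = 0.0183). The other subunit, Rag1, read 5383 and 11121 in control and 3362 and 1840.3 in Vbeta5 on its bright probe set, where the Vbeta5 arrays were again the lowest of the series but the change did not pass (-1.63 ± 0.37, limma adjusted p = 0.0585). Against overnight control, at 14715 and 12491, it did pass (-2.44 ± 0.37, limma adjusted p = 0.0171). A dim second Rag1 probe set gave 0.72 without a call. Dntt, the terminal transferase that adds untemplated bases at receptor joints, read 7682 and 9353 against 5916 and 2566 (-1.12 ± 0.37, limma adjusted p = 0.23), with -1.13 and -1.34 on 2 further probe sets. Ptcra, the pre-receptor alpha chain, read 79.4 and 182 against 56.3 and 59 (-0.89, limma adjusted p = 0.516). Of the 10 measured V(D)J recombination and end joining genes 9 had a negative log2 fold change, Rag2 alone passed, and the median was -1.06, or -0.38 when a gene's probe sets were averaged. With the replicate block 4 passed, Rag1, Xrcc6 and Hmgb2 (limma adjusted p = 0.0247, 0.046 and 0.0165) beside Rag2, and 0 passed without Vbeta5 array 2, either control array or the variance trend (6 lower at an unadjusted p under 0.05 with all arrays).

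Ets2, a transcription factor of the Ets family, read 2011 and 2508 in control, 1707 and 2063 in overnight control, 2669.7 and 1362 in Valpha2, and 340.0 and 322 in Vbeta5. The fall was 6.51-fold (-2.70 ± 0.30, limma adjusted p = 0.00535), the 2 Vbeta5 arrays were close, and no other array came near them. Cbfa2t3, a transcriptional corepressor that binds E proteins, fell 5.34-fold from 237 and 278 to 32.7 and 35.8, with -1.71 and no call on a second probe set (limma adjusted p = 0.195). Ly6d, a small surface protein of early lymphocytes, fell 3.50-fold from 1419 and 1612 to 418 and 421. Bcl2l1 encodes Bcl-xL, which keeps double positive cells alive, and read 1557 and 1385 in control, 1536 and 1973 in overnight control, 1334 and 1639 in Valpha2, and 576 and 374 in Vbeta5. That was a 3.08-fold fall (-1.62 ± 0.26, limma adjusted p = 0.0153) with both Vbeta5 arrays lowest. Plxnd1, a semaphorin receptor that guides double positive cells out of the cortex, fell 4.28-fold from 3004 and 2024.5 to 864 and 366.

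Both coreceptors fell. Cd8a read 6780.2 and 6947 in control, 6234 and 6105 in overnight control, 8257 and 6138 in Valpha2, and 3067 and 2143 in Vbeta5, a 2.67-fold fall (-1.41 ± 0.24, limma adjusted p = 0.0183). Cd4 read 3591 and 2362 in control, 1986 and 3189.5 in overnight control, 1528 and 2365 in Valpha2, and 1123 and 680.1 in Vbeta5, 3.29-fold lower (-1.72 ± 0.34, limma adjusted p = 0.035). The Vbeta5 arrays were the lowest for both genes, but the margin over Valpha2 array 1 was small for Cd4. The test of Vbeta5 against Valpha2 passed for 6 of the 27 double positive stage genes, all lower (0.181% of all tested probe sets were lower in that test): Ets2 (-2.47, limma adjusted p = 0.0265), Ly6d (-1.72, 0.0265), Cbfa2t3 (-2.72, 0.0333), Rag2 (-3.44, 0.0395), Bcl2l1 (-1.63, 0.0395) and Cd8a (-1.47, 0.0443). Cd4 did not pass it (-1.11, limma adjusted p = 0.323). That test gave 0 calls over all probe sets with a common median, without the variance trend or with only the 4 arrays compared. The median of the list was 0.14 in overnight control against control and 0.14 in Valpha2 against control, where 0 members passed (0.217% and 0.399% of tested probe sets did). The count of 8 falls against control became 6 without Vbeta5 array 1, 2 when array 2 was left out and 0 without either control array (13 lower and 3 higher at an unadjusted p under 0.05 with all arrays). It was 8 with a common median. Lef1 and Cd9, on the same list, had positive values without passing (0.85, limma adjusted p = 0.15, and 1.31, 0.198).

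Of 15 pro-apoptotic genes and caspases 0 passed (2 higher and 1 lower at an unadjusted p under 0.05), and 1, Bcl2l11, passed with the replicate block (limma adjusted p = 0.0234). The list median was 0.01. Bcl2l11 encodes Bim, the killer of self-reactive thymocytes, and read 882 and 885 in control, 1478 and 977 in overnight control, 1640.3 and 1598 in Valpha2, and 2387 and 1510.2 in Vbeta5 (1.09 ± 0.27, limma adjusted p = 0.0956). Its 2 dimmer probe sets gave 0.55 and -0.20. Bid, which links caspases to the mitochondrion, read 239 and 219 against 90.4 and 79.6 (-1.27 ± 0.32, limma adjusted p = 0.0957). Bcl2l1 was the 1 call among 13 survival genes.

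More genes fell on the DNA replication and mitosis lists than on the others, and these genes were also low on the overnight control and Valpha2 arrays. Of 35 replication genes 13 fell and 0 rose, all 35 had a negative log2 fold change, and the median was -1.23. Rrm2, the small subunit of ribonucleotide reductase, read 1719 and 2136 in control, 87 and 274 in overnight control, 117 and 179 in Valpha2, and 81.7 and 132 in Vbeta5. The control arrays stood above all 6 others, and the Vbeta5 fall was 15.9-fold (-3.99 ± 0.46, limma adjusted p = 0.00535). Rrm2 fell also in overnight control (-3.48, limma adjusted p = 0.0191) and Valpha2 (-3.58, limma adjusted p = 0.0187) against the same control arrays. Pclaf, a partner of the replication clamp, read 1378 and 1381 in control and 67.4 and 163 in Vbeta5, with 129.8 and 209 in overnight control and 179.9 and 162 in Valpha2. Cdc6, which loads the helicase at origins, fell 6.16-fold from 534 and 636 to 66.5 and 96.4. The helicase subunits Mcm3 and Mcm5 fell 3.14-fold and 2.69-fold, the large reductase subunit Rrm1 fell 4.19-fold, and Pola1, of the primase complex, fell 4.30-fold. Mcm5 read 601 and 849 in Vbeta5, above its overnight control (437 and 419) and Valpha2 (364 and 403) values. Pcna, the clamp itself, read 2804 and 2655 against 816 and 1204 (-1.44 ± 0.33, limma adjusted p = 0.0616, and 0.00835 with the block). Of the 35, 0 passed for Vbeta5 against overnight control, where 0.616% of tested probe sets did (2 higher and 3 lower at an unadjusted p under 0.05) and 0 against Valpha2 (3 and 1), with medians of 0.03 and 0.15.

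Of 37 mitosis genes 17 fell and 0 rose, 36 had a negative log2 fold change, and the median was -1.69. Top2a, the topoisomerase that untangles chromosomes, read 1090.2 and 1128 in control, 140.3 and 192 in overnight control, 109 and 124 in Valpha2, and 16.4 and 157 in Vbeta5. The 2 Vbeta5 arrays were far apart and both below control (-3.89 ± 0.60, limma adjusted p = 0.0129). Mki67, the proliferation antigen Ki-67, fell 5.84-fold from 1095 and 1289 to 123 and 288, and a dim second probe set gave 0.55 without a call. Nusap1, a spindle protein, fell 8.47-fold on 1 probe set and gave -0.56 without a call on a dim one. The motor proteins Kif11, Kif20a and Kif23 fell 6.56-fold, 4.29-fold and 3.79-fold, and Ect2, which places the cleavage furrow, fell 4.34-fold. Kif23 read 199 and 183 in Vbeta5 and 391 to 578 on the 4 overnight control and Valpha2 arrays, but the difference from Valpha2 did not pass (-1.37 ± 0.28, limma adjusted p = 0.0867). Of the 37, 0 passed against overnight control (0 higher and 1 lower at an unadjusted p under 0.05) and 0 against Valpha2 (0 and 1), with medians of -0.24 and -0.16. Over all 8281 tested probe sets the unadjusted counts of these 2 comparisons were 698 and 676. Overnight control and Valpha2 against control had medians of -1.30 and -1.65. The large falls among regulators of this programme included E2f8 (-3.32 on the log2 scale), Mybl2 (7.42-fold), Uhrf1 (6.94-fold) and Tcf19 (6.81-fold), and Enkd1 fell 6.20-fold. A second Mybl2 probe set gave 0.14 without a call. Of the 23 G1 genes, Ccnd3, which encodes cyclin D3, fell 4.42-fold from 6248 and 5087 to 1735 and 916, Cdkn2c, a Cdk inhibitor, fell 3.44-fold, and Gadd45b rose.

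The counts of replication and mitosis genes that fell became 2 and 4 without Vbeta5 array 1, 3 and 10 without Vbeta5 array 2, and 0 and 0 without either control array (24 and 32 lower at an unadjusted p under 0.05 with all arrays). They were 11 and 18 with a common median. With the replicate block they were 16 and 26, with 1 rise on the mitosis list. With only the 4 arrays compared they were 18 and 22, and with the 6 arrays without the overnight controls 16 and 23. The medians of both lists stayed between -1.45 and -1.14 and between -1.90 and -1.24 over 16 alternative settings. They were -1.28 and -1.78 without control array 1, and -1.22 and -1.60 without control array 2. Those 2 fits lose the closest pair of arrays from their spread, so their counts do not show how far the medians moved.

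**Figure D3:**
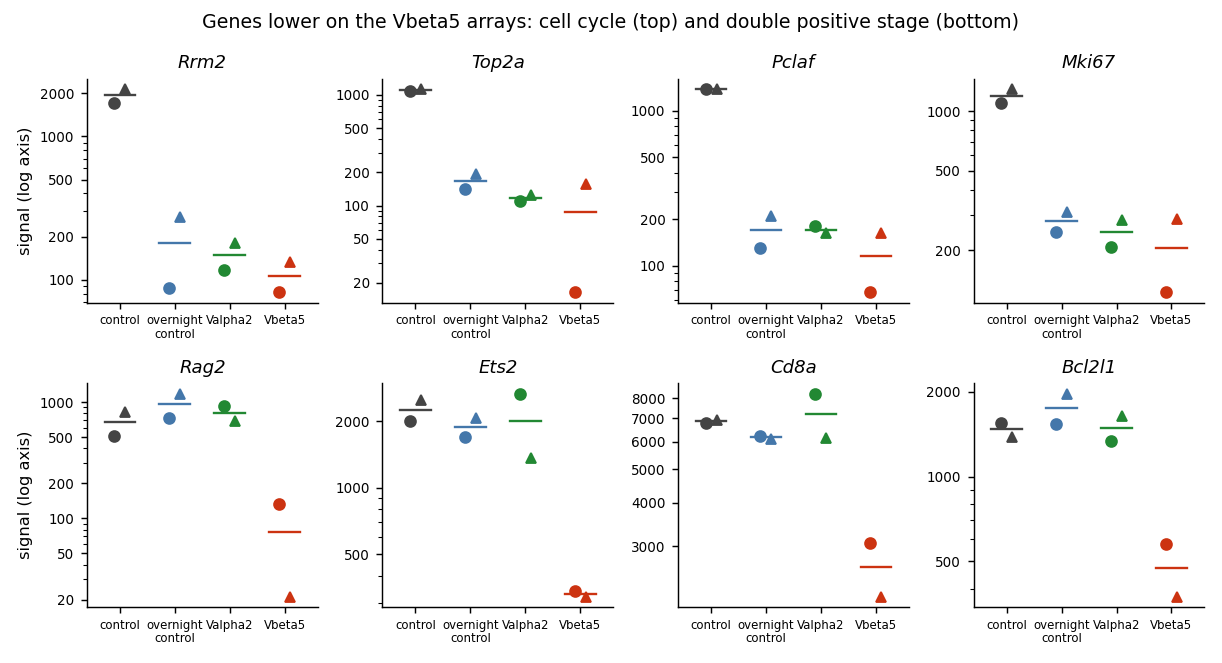
Signal on each of the 8 arrays (y axis, log) for 8 genes that were lower on the Vbeta5 arrays; circles are arrays 1, triangles arrays 2 and bars group means. The genes were picked from those called lower, and not every called gene shares these patterns. In the top row (Rrm2, Top2a, Pclaf, Mki67) the control arrays alone are high, and in the bottom row (Rag2, Ets2, Cd8a, Bcl2l1) the Vbeta5 arrays alone are low.

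Promoters of 2 mitotic genes that fell are shown because they repeat a pair of short motifs. Top2a lies at chr11:99024190-99024439 and Ccnb2, cyclin B2, at chr9:70421555-70421804, both on the minus strand and written in the direction of the gene (RefSeq, GRCm38.p6, 250 bases upstream of the start). Ccnb2, chosen for its window after its values were seen, fell 2.81-fold from 2353 and 2724 to 707 and 1119. Capitals mark the CCAAT box and the element TTTGAA, on the printed strand or, reversed and complemented, on the other.
Top2a: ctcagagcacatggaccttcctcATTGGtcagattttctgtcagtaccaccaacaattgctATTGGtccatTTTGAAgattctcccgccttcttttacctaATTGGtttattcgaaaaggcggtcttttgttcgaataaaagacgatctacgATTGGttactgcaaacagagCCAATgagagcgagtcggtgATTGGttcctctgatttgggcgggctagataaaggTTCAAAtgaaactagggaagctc
Ccnb2: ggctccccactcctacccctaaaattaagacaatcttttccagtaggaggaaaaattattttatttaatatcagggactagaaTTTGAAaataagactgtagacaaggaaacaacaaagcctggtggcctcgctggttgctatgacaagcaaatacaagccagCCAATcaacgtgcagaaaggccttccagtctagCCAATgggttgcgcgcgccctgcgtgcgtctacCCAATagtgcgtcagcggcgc
The Top2a window held 6 copies of CCAAT and 2 of TTTGAA, and the Ccnb2 window 3 and 1. CCAAT was found in 82.4% and TTTGAA in 70.6% of the 17 windows of 15 mitosis genes that fell, against 33.8% and 16.0% of all windows. In the 15 windows of 12 replication genes CCAAT was in 60.0%, and GCGGGAA, an E2F type motif, in 33.3% against 3.82% of all. Of 9 windows of 6 double positive stage genes that fell, 11.1% held CCAAT and 33.3% held AGGTCA, a nuclear receptor core motif found in 14.0% of all. All of these motifs but AGGTCA were picked after the sequences were read, both strands were searched, each motif was counted on its own, and the shares are descriptions without a test.

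The remaining lists gave 1 call. For ribosome biogenesis 0 of 43 genes passed (0 at an unadjusted p under 0.05 either way; median 0.11). Heat shock proteins gave 0 of 30 (6 higher and 1 lower unadjusted; 2, St13 and Hspa4l, with the block), endoplasmic reticulum stress genes 0 of 31 (2 and 1) and oxidative phosphorylation 0 of 55 (0 and 1), with medians of 0.02, 0.14 and -0.04. Cytosolic ribosomal proteins, listed by name pattern, gave 0 of 26 (1 and 2), and 22 of the 26 were positive with a median of 0.31; the overnight control and Valpha2 arrays stood at 0.40 and 0.40 against control. Cytokine receptors with Jak, Stat and Socs genes gave 0 of 24 (4 and 2; 1, Il4ra, with the block), clock genes 0 of 15 (1 and 2), glucocorticoid-responsive genes 0 of 13 (3 and 0) and p53 targets 0 of 13 (1 and 1). Abcg1, a cholesterol exporter, was the 1 call among 19 cholesterol genes and fell 2.34-fold from 1315 and 1090.4 to 562 and 447.

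**Figure D4:**
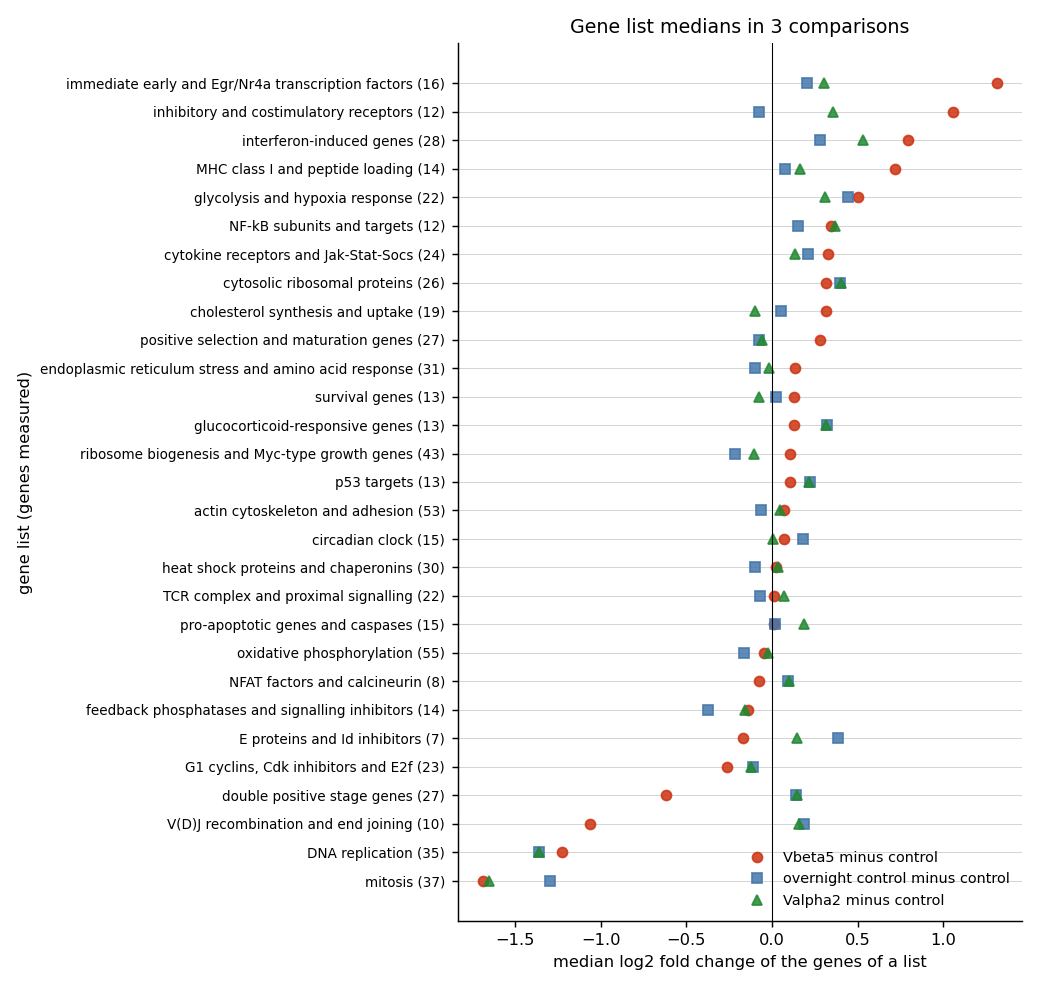
Median log2 fold change of each gene list (x axis) for Vbeta5, overnight control and Valpha2, each against the same 2 control arrays; the number of genes measured stands after each name (y axis). Replication and mitosis medians lie below -1 in all 3 comparisons, while double positive stage and V(D)J medians are below 0 for Vbeta5 (-0.62 and -1.06, the latter -0.38 when a gene's probe sets are averaged) and above 0 for the others.

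The same control arrays served the other comparisons, whose own counts were 2 higher (0.0242% of tested probe sets) and 16 lower (0.193%) for overnight control, 0.217% in all. For Valpha2 they were 3 higher (0.0362%) and 30 lower (0.362%), 0.399% in all. Vbeta5 against overnight control gave 29 higher (0.35%) and 22 lower (0.266%), 0.616% in all. Vbeta5 against Valpha2, the test of the difference between the antibodies, gave 8 higher (0.0966%) and 15 lower (0.181%), 0.278% in all. The 8 higher than Valpha2 were Egr1, Egr2, Cd53, Itm2a, Basp1, Dipk2a, Cd2 and Crybg1, of which the last 3 are outside the rule for named genes and were chosen after their values were seen. That count of 23 fell to 0 without Valpha2 array 1 (345 at an unadjusted p under 0.05), without Vbeta5 array 2 (555), with a common median (513), without the variance trend (631) and with only the 4 arrays compared (783). With the replicate block it was 90.

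Several called genes outside the rule are named here after their values were seen. Higher genes not yet mentioned were Cpt1a, the mitochondrial fatty acid importer (342 and 426 in control, 1489 and 1735 in Vbeta5, 1318 and 1332 in Valpha2, 721 and 868 in overnight control), and Timp1, a protease inhibitor (57 and 109, 358 and 261, 416 and 282, 677 and 421 in the same order). Both were above control on every other array, and Timp1 was highest in overnight control. Among the lower genes, Sec23a, a coat protein of vesicles leaving the endoplasmic reticulum, read 110.2 and 132 in control and 9.2 and 11.9 in Vbeta5, with 106 to 174 on the other 4 arrays. Gtf2h4, a subunit of TFIIH, read 1422 and 1348 in control, 562 and 406 in Vbeta5, 1837 and 2518 in overnight control and 1682 and 1902 in Valpha2. Sit1, an adaptor that dampens receptor signalling, read 1446 and 1279 in control and 444 and 370.3 in Vbeta5, with 1059 to 1459 elsewhere. These 3 were lowest with Vbeta5 and also passed against Valpha2 (-2.48, limma adjusted p = 0.0443, -1.87, 0.0265 and -1.54, 0.0395). Tnk2, a cytoplasmic tyrosine kinase, fell from 2018 and 1904 to 508 and 478, with 351 to 562 on the other 4 arrays.

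Markers of other cell types were also summed. The total of the 14 dendritic cell and MHC class II markers was 1514 to 1815 in control and 3157 to 3235 in Vbeta5, and 1 of them, H2-DMa, passed (1.44 on the log2 scale, limma adjusted p = 0.0196). The 16 macrophage markers summed to 702 to 868 and 1327 to 1402, the 12 granulocyte markers to 509 to 747 and 942 to 1175, and the 12 NK and gamma delta markers to 440 to 509 and 815 to 967. Over tested markers alone, these 3 sums were 632 and 722, 438.5 and 662, and 248.5 and 357.5 in control. In overnight control they were 1406 and 649, 1493 and 699, and 913 and 572. They were 702.5 and 778, 818 and 793, and 774 and 655 in Valpha2. In Vbeta5 they were 1175 and 1207, 963 and 800, and 527.5 and 770. Tested dendritic markers summed to 1782 and 1465 in control and 3145 and 3020.5 in Vbeta5. Their sums were 2766.5 and 1349.5 in overnight control, and 1967.5 and 1803 in Valpha2. The 11 B cell markers summed to 4094 to 4932 and 2889 to 3550. Of the 7 tested, 4 had a positive log2 fold change, near the 57.0% of all tested probe sets. Their median was 0.71 with 0 calls (0 higher and 2 lower at an unadjusted p under 0.05). Erythroid (552 to 838 and 735 to 863), fibroblast and endothelial (1598 to 1712 and 1595 to 2282) and thymic epithelial markers (500.1 to 714 and 726 to 768) differed less or overlapped. Dim probe sets of any kind had a median log2 fold change of 0.25, against 0.08 for those of middle and -0.04 for those of high signal. The part of these cells in the interferon, class I and other results was not tested.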

How the data were processed

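The values deposited by the authors are linear intensities of 12488 probe sets per array, normalized per the labels; software and scaling target: not given in the sources used here. The mean after trimming 2% at each end was 250.14 to 250.16 on every array. After leaving out 66 control probe sets, 12422 remained, of which 10833 had 1 gene symbol (10817 found in RefSeq, GRCm38.p6), 396 several and 1193 none. The dimmest 33.3% by mean signal were left out, log2(signal + 17) was taken, 17 being the 20th percentile of positive signals, and 8281 were tested with limma 3.58.1 in R 4.3.3 (1 mean per group over 8 arrays, eBayes with trend, 4 residual and 6.44 prior degrees of freedom, two-sided, Benjamini-Hochberg within a comparison). The median standard error was 0.378. An exact permutation test of 2 against 2 cannot go below p = 0.333, so none was run. Fold changes are on the log2(signal + 17) scale and understate dim probe sets.

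The members, gene lists and tests were chosen with earlier results of these data known. Named genes are up to 12 largest rises and 12 largest falls among called genes whose arrays do not overlap, up to 6 called and 3 other members of each list by p, and 24 fixed genes, of which 7 rose, 4 fell and 2, Cd69 and Egr3, were not measured; 3 named genes that did not pass and whose sign turned under an alternative are left out. In lists a gene is its brightest tested probe set. Detection calls were not used. The Data numbers 1 and 2 in the titles are not said to mark a shared batch and are not in the main model; deviations of equally numbered arrays correlated across probe sets at r = 0.104 to 0.347 in all 6 pairs of groups, so results with the number as a block are given where they change a call or a count by over 1.5 times. Alternatives were quantile normalization, a common median, other offsets and filters, no trend, a replicate block, fewer arrays and leaving out each array.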

Additional observations from a re-analysis of the deposited data

How the results depend on the processing

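With 136 calls (52 higher, 84 lower) for Vbeta5 against control, quantile normalization, an offset of 8.5, a floor, no filter and leaving out the dimmest 50% gave 121 to 135. No variance trend gave 22 (7 and 15), only the 4 arrays compared 215 (86 and 129), 6 arrays without the overnight controls 191 (73 and 118), and a common median 97 (17 and 80). Leaving out 1 array gave 0 to 56 (0 to 28 higher, 0 to 28 lower), with the lone array of a group assumed to vary like the others. Chosen after seeing the data, leaving out the 3 arrays of higher 3' to 5' ratio (overnight control 1, Valpha2 1, Vbeta5 1) gave 329 (139 and 190), with 1 Vbeta5 array and 1 Valpha2 array left and the spread taken from the 2 control arrays alone, which says nothing of stability. For Vbeta5 against Valpha2 the 23 calls became 0 with a common median, no variance trend or only the 4 arrays, 52 without those 3 arrays, then 1 array against 1, and 0 to 21 with 1 array left out.

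With the Data number as a replicate block, the counts were 242 (95 and 147) and 90. Equally numbered control and Vbeta5 arrays deviated together at r = 0.276; with 2 numbers this is a hint from the data and not the design. Of 56 named genes that passed, 56 passed with the block, 52 with quantile normalization, 40 with a common median and 12 without the trend. None changed sign, but that outcome was largely fixed in advance. On every called probe set the Vbeta5 and control arrays did not overlap, so leaving out 1 array could not turn a sign. The block, the trend, the filters and the fits of fewer groups leave the fold change as it was. Each array has 1 intensity per probe set and no measure of background here, so dim values carry no detection limit.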
